A study of Mus musculus with 6 samples.

Results

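The heat shock system was examined in D10 cells at low temperature through Hsf1, the gene for heat shock factor 1, and the genes of the major heat shock chaperones, Hspa8, Hspa1a, Hspa1b, Hspa4, Hsph1, Hsp90aa1, Hsp90ab1, Hspd1 and Hspe1. These are the 10 rows, of 41079 genes listed, whose symbol is one of these names, and each symbol matched 1 row. D10 is a cloned mouse helper T cell line, so by their label all libraries come from 1 cloned line. The labels describe the cells as CD4+ and the source as lymph node. Marker levels, given below, differed between replicates, and whether the libraries share a cell stock was not tested. Non-acclimated T cells were kept at 37°C and cold-acclimated T cells at 26°C, each for 24 h before RNA was taken. Each condition had 3 libraries of poly(A)+ RNA, with no other agent or genetic change named in the labels. Expression was deposited as TPM, a measure of transcript abundance per length whose sum is the same in every library. Read numbers could be recovered from the TPM. The libraries held between 16899628 and 31290854 reads on genes, and the members with any signal in every library rested on 996 to 139405 reads each.

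HSF1 is the transcription factor of the heat shock response. In unstressed cells it is held inactive in part by chaperones. When unfolded proteins accumulate, HSF1 forms trimers and binds heat shock elements, which are runs of inverted GAA units in the promoters of chaperone genes. The chaperones it controls include HSP70 proteins, which bind exposed hydrophobic stretches in an ATP-driven cycle, HSP110 proteins, which act as nucleotide exchange factors for HSP70, HSP90 proteins, which mature kinases and receptors, and the mitochondrial chaperonin of HSP60 and HSP10. Some of these genes are expressed constitutively at high levels in growing cells, whereas others are nearly silent until stress.

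Promoter sequence was read from GRCm39 as the 250 bases before the start of the canonical GENCODE transcript. A run of 2 units was searched on both strands as GAANNTTC or TTCNNGAA, and a run of 3 units as GAANNTTCNNGAA or TTCNNGAANNTTC, which contains overlapping 2-unit matches. Of 21302 protein-coding promoters, 12.1% held the 2-unit motif and 0.338% the 3-unit motif. Of the 10 members, 5 had a 2-unit match and 2 had a 3-unit match. The matches are given here 5′ to 3′ on the strand of the gene, with 6 bases on each side and the matched run in capitals, because a heat shock element is the sequence that HSF1 binds.
Hspa1a chr17:35191223-35191242, minus strand: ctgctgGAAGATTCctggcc
Hspa1b chr17:35178305-35178324, minus strand: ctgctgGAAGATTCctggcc
Hsph1 chr5:149559821-149559840, minus strand: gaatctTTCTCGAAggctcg
Hspd1 chr1:55127212-55127241, minus strand: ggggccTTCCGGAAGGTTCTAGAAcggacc
Hspe1 chr1:55127212-55127241, plus strand: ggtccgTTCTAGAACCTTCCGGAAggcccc

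Hspd1 and Hspe1 are transcribed away from each other from starts 108 bases apart, so the same 18-base run, which contains 3 overlapping 2-unit and 2 overlapping 3-unit matches, stands upstream of both. The run begins 52 bases before the Hspd1 start and 73 bases before the Hspe1 start. In Hsph1 the match begins 28 bases before the start. These starts are those of the canonical GENCODE transcripts, whereas the gene positions given below come from the deposited annotation. In that annotation Hsph1 and Hspd1 begin further upstream, at 149562594 and 55127402, so their matches lie inside the deposited gene models. Hspa1a and Hspa1b, neighbouring single-exon genes, carry the same element 104 bases before their starts, and their 250-base promoters differ at 3 positions. The last 120 bases of these promoters, which differ at 1 position, are given because the transcripts of both genes were at or near 0.
Hspa1a chr17:35191133-35191252, minus strand: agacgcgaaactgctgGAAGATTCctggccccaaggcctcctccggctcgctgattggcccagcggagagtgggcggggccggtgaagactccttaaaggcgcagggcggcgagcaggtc
Hspa1b chr17:35178215-35178334, minus strand: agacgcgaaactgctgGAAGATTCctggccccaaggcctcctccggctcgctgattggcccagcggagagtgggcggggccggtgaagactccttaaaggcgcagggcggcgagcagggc
No match was found in these windows for Hsf1, Hspa8, Hspa4, Hsp90aa1 or Hsp90ab1, which says only that these letters are not within the 250 bases before the start.

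The libraries of replicate 3 stood apart from the others in both conditions. Cd4, which encodes the coreceptor named in the labels, was at 310 and 328 TPM in the non-acclimated and cold-acclimated libraries of replicate 3 but at 0.0351 to 1.30 TPM in the 4 libraries of replicates 1 and 2, so those 4 libraries go against the CD4+ label. All 7 T cell markers examined were at a mean of at least 1 TPM over the 6 libraries, Cd4 only through replicate 3. Cd3e was between 476 and 874 TPM. The summed level of the 7 was 2587 to 4048 TPM in non-acclimated and 3064 to 3773 TPM in cold-acclimated cells. Replicate 2 also differed from the others in Cd28 and Cd3d. Cd28 was at 7.35 and 5.61 TPM in its non-acclimated and cold-acclimated libraries, against 27.9 to 54.5 TPM in the other libraries. Cd3d was at 64.3 and 78.6 TPM in replicate 2, against 240 to 332 TPM. The defining markers Cd8a, Ms4a1 and Cd14 were at 0 in every library. The summed level was at most 0.225 TPM for 2 CD8 T cell markers and at most 1.11 TPM for 5 B cell markers. For 5 macrophage and monocyte markers it was 0 to 11.6 TPM in non-acclimated and 0.642 to 14.9 TPM in cold-acclimated cells, mostly Lyz2 in replicate 3, and for 4 erythroid markers 79.9 to 485 and 61.3 to 474 TPM, nearly all of it Hba-a1, with Hbb-bs at 0. Cirbp, a gene known for its induction by mild cold, was higher in each of the 3 cold-acclimated libraries (44.1 ± 24.5 TPM at 37°C and 118 ± 20.8 TPM at 26°C, SD, n = 3; adjusted p = 0.055 in limma, or 0.012 with the replicate number as a block), whereas Rbm3, another such gene, was higher at 26°C in 2 of 3 replicates. Those values are for TPM as deposited. After median of ratios scaling, described below, the log2 fold change was 1.98 for Cirbp (adjusted p = 0.037 in limma) and 0.89 for Rbm3 (adjusted p = 0.24). The labels state that RNA came from old and new batches without saying which library belongs to which, so batch and replicate number cannot be told apart. Replicates are described as independent experimental batches, and results are therefore also given without replicate 3.

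Hsp90ab1 was the most abundant member and the 7th most abundant of all genes listed, and Hsf1 was the least abundant of the members with reads in every library. On the TPM scale, which compares genes per length, the order in non-acclimated cells was Hsp90ab1 (4792 ± 675 TPM), Hspa8 (1727 ± 332), Hsp90aa1 (1227 ± 555), Hspd1 (794 ± 377), Hspe1 (535 ± 115), Hspa4 (311 ± 68.3), Hsph1 (122 ± 54.6) and Hsf1 (73.0 ± 30.1) (SD, n = 3). Hsp90ab1 lay above Hspa8, Hspe1 above Hspa4, and Hspa4 above Hsph1 without overlap, whereas the neighbours from Hspa8 to Hspe1 overlapped in their ranges, as did Hsph1 and Hsf1. In cold-acclimated cells the order was the same apart from Hspa8, which at 1156 ± 18.6 TPM came after Hsp90aa1 at 1284 ± 387 TPM (SD, n = 3), but these ranges overlapped and Hsp90aa1 was the higher in 1 of 3 libraries. The other means at 26°C were 5526 ± 239 TPM for Hsp90ab1, 764 ± 306 for Hspd1, 496 ± 135 for Hspe1, 325 ± 28.2 for Hspa4, 127 ± 28.3 for Hsph1 and 65.4 ± 9.34 for Hsf1 (SD, n = 3), and of these neighbours only Hspd1 and Hspe1 overlapped. Together the 10 transcripts made up 0.776%, 1.00% and 1.10% of all TPM in replicates 1, 2 and 3 at 37°C, and 0.959%, 0.901% and 1.06% at 26°C. The share therefore overlapped between the conditions.

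**Figure D1:**
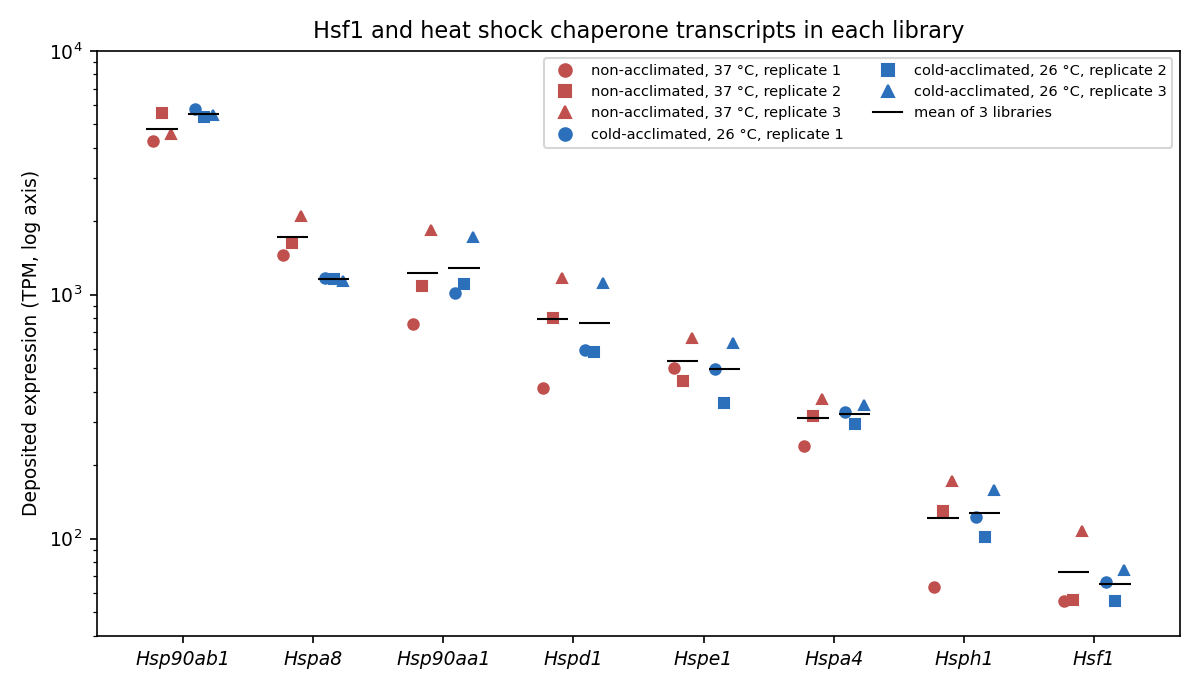
Deposited expression (TPM, log axis) of the 8 members with reads in every library. Each point is a library, red at 37°C and blue at 26°C, with the replicate number as the symbol and the mean of 3 libraries as a line. Hspa8 is the member whose cold-acclimated libraries, 1135 to 1170.2 TPM, all lie below the non-acclimated ones, 1457 to 2097 TPM.

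The main comparison asked whether 24 h at 26°C changed the transcripts of HSF1 and its chaperones. None of the 8 members that could be tested passed the test in either direction. Differential expression was tested with limma on log2(TPM + 1) over the 12227 genes with a mean of at least 1 TPM, and a gene was called at an adjusted p under 0.05 and a change of at least 2-fold. Of the members, 0 were called upregulated, against 2.63% of all genes tested, and 0 were called downregulated, against 16.0%. Without the 2-fold criterion, 0 members passed an adjusted p under 0.05 upwards and 0 downwards, against 3.30% and 17.4% of all genes. At an unadjusted p under 0.05 there was 1 member, Hspa8, against 37.7% of all genes, and with voom on the recovered reads there were 0. With TPM as deposited, all cold-acclimated libraries lay below all non-acclimated ones in 1 member, Hspa8, as in 31.4% of all genes tested. In 0 members did they lie above, as in 9.69%. In bulk RNA, fewer cells of a type and less RNA per cell cannot be told apart.

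The position of the members relative to 0 depended on how libraries were scaled. Their position relative to other genes changed little, since all members but Hspa8 lay above the median of all genes under either scaling. The median log2 fold change of all genes tested was -0.34 for the deposited TPM. It was 0.02 once the libraries had been put on a common scale by the median of ratios, which divides each of them by its median ratio to the geometric mean of every gene. The median of the 8 members was 0.04 as deposited and 0.44 after that rescaling. With TPM as deposited, 4 of 8 members had a value above 0, against 33.5% of all genes, and after rescaling 7 of 8, against 51.1%. The called genes moved in the same way, from 14.1% upregulated as deposited to 42.7% after rescaling, when 6.56% of all genes were called upregulated and 8.79% downregulated. No member was called or had an adjusted p under 0.05 in limma with either scaling.

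**Figure D2:**
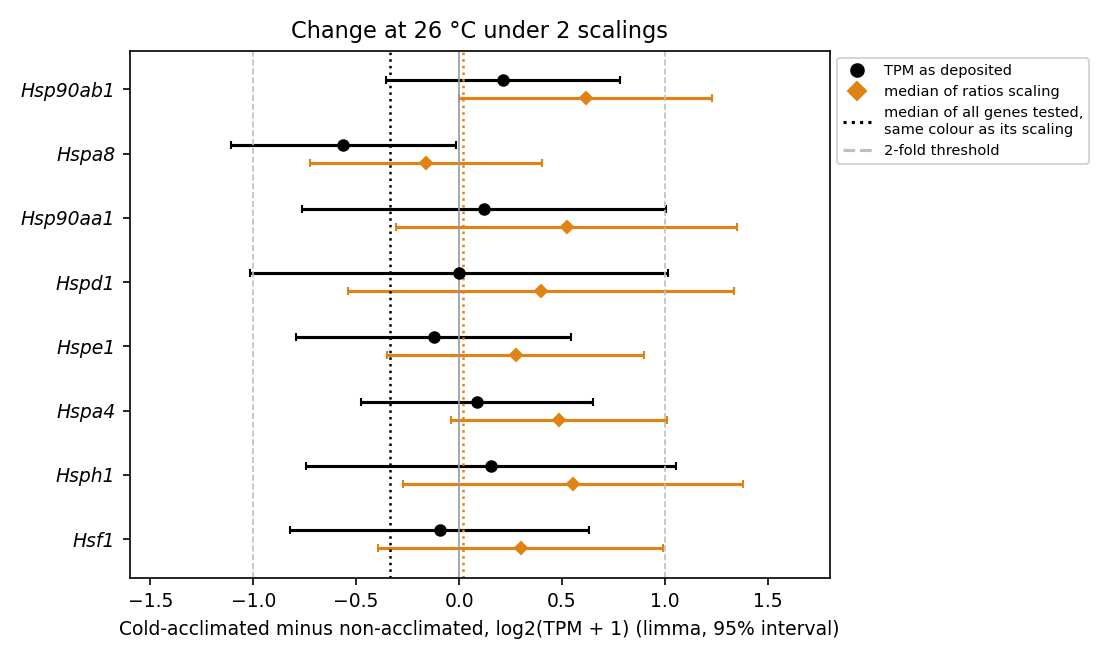
Log2 fold change of 8 members, cold-acclimated minus non-acclimated, from limma on log2(TPM + 1), with 95% intervals. Black circles are TPM as deposited and orange diamonds median of ratios scaling; dotted lines are the medians of all genes tested (-0.34 and 0.02) and dashed lines the 2-fold threshold. The points of all members but Hspa8 lie to the right of the dotted line of their own scaling.

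Hsf1 lies on chromosome 15 of GRCm39 (76361562 to 76385355, plus strand) with 13 exons in its canonical transcript. Replicates 1, 2 and 3 had 55.3, 55.9 and 108 TPM at 37°C and 66.7, 55.5 and 74.0 TPM at 26°C. The groups overlapped, and the highest library was non-acclimated replicate 3. The log2 fold change was -0.09 ± 0.31 (SE; limma adjusted p = 0.86), with a 95% interval from -0.82 to 0.63, so a 2-fold change in either direction lay outside it. The difference was 0.27 in replicate 1, -0.01 in replicate 2 and -0.54 in replicate 3 on the log2 scale. After median of ratios scaling the value was 0.30 (adjusted p = 0.50 in limma). The sign thus changed with the scaling and with the replicate.

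Hspa8 encodes HSC70, the constitutive cytosolic HSP70, which folds new proteins and uncoats clathrin vesicles. The gene lies on chromosome 9 (40712572 to 40716498, plus strand). Replicates 1, 2 and 3 had 1457, 1629 and 2097 TPM at 37°C and 1170.2, 1164 and 1135 TPM at 26°C. With TPM as deposited, every cold-acclimated library was below every non-acclimated library, and the SD was 18.6 TPM among the former and 332 TPM among the latter (n = 3). The log2 fold change was -0.56 ± 0.24 (SE; limma adjusted p = 0.12), which corresponds to 0.678 of the non-acclimated level. The value did not pass the test after correction, although Hspa8 was lower in 3 of 3 replicates, with differences of -0.32, -0.48 and -0.89 on the log2 scale. Relative to the median of all genes the change was -0.22, and after median of ratios scaling it was -0.16 (adjusted p = 0.67 in limma). After that rescaling the groups overlapped, and Hspa8 was no longer lower in every replicate.

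The 3 snoRNA genes inside Hspa8 had few reads of their own. Snord14c had 0 TPM throughout at 37°C and 0, 3.83 and 2.25 TPM at 26°C in replicates 1, 2 and 3. Snord14d had 3.35, 4.20 and 11.5 TPM and then 0, 1.28 and 3.38 TPM, and Snord14e was at 0 to 2.15 TPM throughout. None of them rested on more than 12 reads in a library. Their reads cannot be told from those of Hspa8 where they overlap on the same strand. Of the 150-base windows of the Hspa8 transcript, 56.0% occurred elsewhere in the genome without a mismatch, so the level of Hspa8 depends on how reads with several matches were counted, which is not given in the sources used here.

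Hspa1a and Hspa1b encode the strongly stress-inducible cytosolic HSP70, and their transcripts were at or below the detection floor in every library at both temperatures. Hspa1a (chromosome 17, 35188335 to 35191132, minus strand) had 0 reads in all 6 libraries. Hspa1b (35175405 to 35178214, same strand) had 3 reads in non-acclimated replicate 3, equal to 0.0887 TPM, and 0 reads in the other 5 libraries. A count of 0 allows up to 3 reads, which is 0.0891 to 0.156 TPM for Hspa1a, or at most 0.0107% of the Hspa8 level in the same library. This floor covers counting error only. Both genes were under the minimum for testing, and no fold change was computed. They share 38.1% of the Hspa1a windows of 150 bases and 40.5% of those of Hspa1b, but 1699 and 1580 windows occur nowhere else in the genome, so reads from most of either transcript could be placed. Hspa1l, the third gene of this cluster, was at 0.785, 2.37 and 3.58 TPM in non-acclimated and 0.239, 0.322 and 1.78 TPM in cold-acclimated cells (adjusted p = 0.23 in limma), lower in 3 of 3 replicates with overlapping groups.

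Hspa4 and Hsph1 belong to the HSP110 family, whose proteins release ADP from HSP70. Hspa4 (chromosome 11, 53150641 to 53191306, minus strand) was at 239, 319 and 375 TPM at 37°C and at 329, 296 and 352 TPM at 26°C in replicates 1, 2 and 3. The groups overlapped, and the log2 fold change was 0.09 ± 0.24 (SE; 95% interval from -0.48 to 0.65, limma adjusted p = 0.83). Hspa4 was thus among the members with the narrowest intervals, and a 2-fold change lay outside its interval with TPM as deposited. After median of ratios scaling the value was 0.48 (adjusted p = 0.16 in limma).

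Hsph1 (chromosome 5, 149540308 to 149562594, minus strand) was at 63.4, 130.0 and 172 TPM at 37°C and at 123, 102 and 158 TPM at 26°C. The lowest library was non-acclimated replicate 1, which also had the lowest Hsf1, Hspa4, Hsp90aa1, Hsp90ab1 and Hspd1. With TPM as deposited the replicates disagreed, with a log2 difference of 0.95 in replicate 1, -0.35 in replicate 2 and -0.12 in replicate 3. The log2 fold change was 0.16 ± 0.39 (SE; limma adjusted p = 0.81), or 0.55 after median of ratios scaling (adjusted p = 0.29 in limma). Gm20005, a noncoding gene on the opposite strand that overlaps the 5′ part of Hsph1, was called downregulated. It had 3.36, 2.60 and 5.57 TPM at 37°C and 0.722, 0.803 and 0.869 TPM at 26°C (log2 fold change -1.38 ± 0.32, SE, with a limma adjusted p of 0.025). Over the fits with 1 library fewer its adjusted p was 0.031 to 0.090 in limma, and the call was lost without replicate 1 or replicate 2 of either condition. The strand setting of the read counting is not given, and without it reads of Gm20005 and Hsph1 could not be told apart where they overlap, although Gm20005 had at most 204 reads in a library and Hsph1 at least 2786.

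HSP90 is encoded by the more inducible Hsp90aa1 and the constitutive Hsp90ab1. Hsp90aa1 (chromosome 12, 110657470 to 110662829, minus strand) was at 756, 1086 and 1839 TPM at 37°C and at 1014, 1111 and 1728 TPM at 26°C. Replicate 3 was the highest in both conditions, and within a replicate the temperatures differed by 0.42, 0.03 and -0.09 on the log2 scale. The overall log2 fold change was 0.12 ± 0.38 (SE; 95% interval from -0.76 to 1.01, limma adjusted p = 0.85). Of the 150-base windows of its transcript, 43.7% occurred elsewhere in the genome, against 0 windows for Hsp90ab1.

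Hsp90ab1 (chromosome 17, 45878704 to 45884187, minus strand) was at 4274, 5555.5 and 4547 TPM at 37°C and at 5795, 5336 and 5448 TPM at 26°C. The cold-acclimated libraries lay close together and overlapped with non-acclimated replicate 2. The log2 fold change was 0.21 ± 0.24 (SE; 95% interval from -0.35 to 0.78, limma adjusted p = 0.56). After median of ratios scaling it was 0.61 (95% interval from 4.7e-05 to 1.23, adjusted p = 0.14 in limma), the largest value of the 8 members under that scaling. Gm13498, a pseudogene of Hsp90ab1 on chromosome 2, had 1 read in 1 library and none in the others.

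The ratio of the HSP90 genes within a library did not separate the conditions but separated replicate 3 from the others. Hsp90aa1 was at 17.7%, 19.5% and 40.4% of Hsp90ab1 in replicates 1, 2 and 3 at 37°C, and at 17.5%, 20.8% and 31.7% at 26°C. The mean log2 ratio was -2.05 ± 0.65 at 37°C and -2.14 ± 0.44 at 26°C (SD, n = 3), a difference of -0.09 (exact permutation test, two-sided p = 0.80, where 0.10 is the smallest p that 3 libraries against 3 allow). A ratio within a library does not depend on the scaling between libraries.

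Hspd1 encodes HSP60 and Hspe1 its lid HSP10, which together fold proteins in the mitochondrial matrix. Hspd1 (chromosome 1, 55116992 to 55127402, minus strand) was at 414, 799 and 1167 TPM at 37°C and at 592, 583 and 1118 TPM at 26°C. Its differences within replicates were 0.51, -0.45 and -0.06 on the log2 scale, and the overall value was -0.00 ± 0.44 (SE; limma adjusted p = 1.00), with the widest 95% interval of the members, from -1.02 to 1.02. Hspe1 (chromosome 1, 55127307 to 55130476, plus strand) was at 499, 442 and 664 TPM at 37°C and at 496, 361 and 632 TPM at 26°C, lower in 3 of 3 replicates with differences of -0.01, -0.29 and -0.07 on the log2 scale. Its log2 fold change was -0.12 ± 0.29 (SE; limma adjusted p = 0.79), and the groups overlapped. The differences and this value are for TPM as deposited. After median of ratios scaling the log2 fold change of Hspe1 was 0.28 (adjusted p = 0.49 in limma). The deposited gene models of this divergent pair overlap at their 5′ ends, unlike the canonical transcripts. Of the 150-base windows of Hspd1, 19.4% occurred elsewhere in the genome, as did 14.1% of those of Hspe1.

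Although they share a promoter, Hspd1 and Hspe1 did not keep a fixed ratio across libraries. Per length, Hspe1 was at 121%, 55.3% and 56.9% of Hspd1 in replicates 1, 2 and 3 at 37°C, and at 83.8%, 61.9% and 56.5% at 26°C. The ratio was highest in replicate 1 at both temperatures. The mean log2 ratio was -0.47 ± 0.64 at 37°C and -0.59 ± 0.30 at 26°C (SD, n = 3), a difference of -0.12 (exact permutation test, two-sided p = 0.90).

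**Figure D3:**
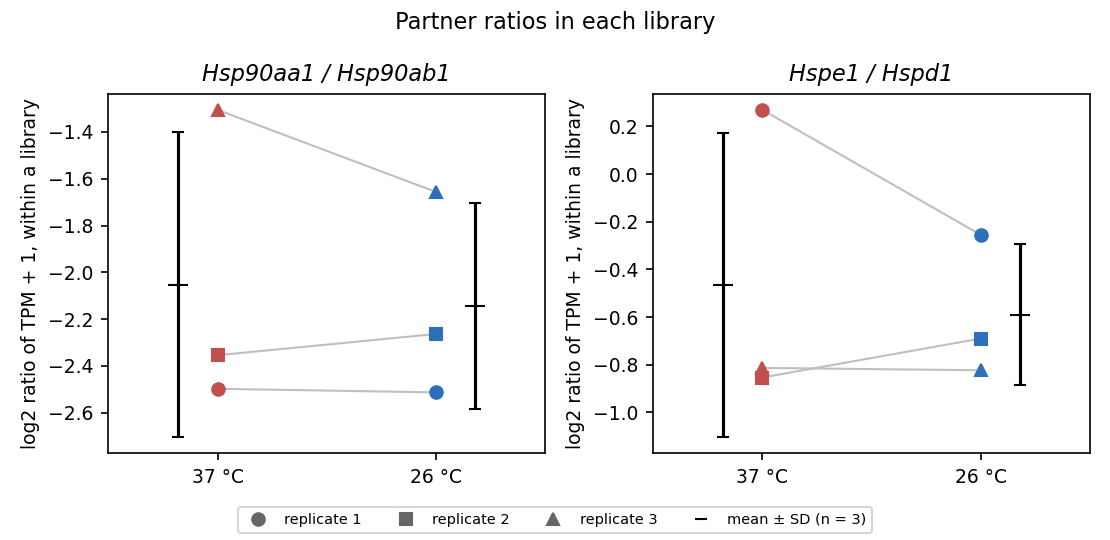
Log2 ratio of Hsp90aa1 to Hsp90ab1 (left) and of Hspe1 to Hspd1 (right) within each library, on TPM + 1, at 37°C (red) and 26°C (blue). Lines join libraries with the same replicate number, and bars are the mean ± SD of 3 libraries. Replicate 3 is highest on the left and replicate 1 on the right, in both conditions.

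With TPM as deposited, most members differed more between replicate numbers than between temperatures. For 6 of the 8 members the range of the replicate means was larger than the difference between the temperatures, against 50.2% of all genes tested. The exceptions were Hspa8, where the range was 0.24 and the temperature difference -0.56 on the log2 scale, and Hsp90ab1, with 0.13 and 0.21. Hspd1 had a range of 1.21 and Hsp90aa1 one of 1.02. In both conditions 6 members were higher in replicate 3 than in replicates 1 and 2, as were 27.1% of all genes tested, and the exceptions were again Hspa8 and Hsp90ab1. Replicate 3 was also the replicate with high Cd4, and the part of that difference in the chaperone levels was not tested.

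**Figure D4:**
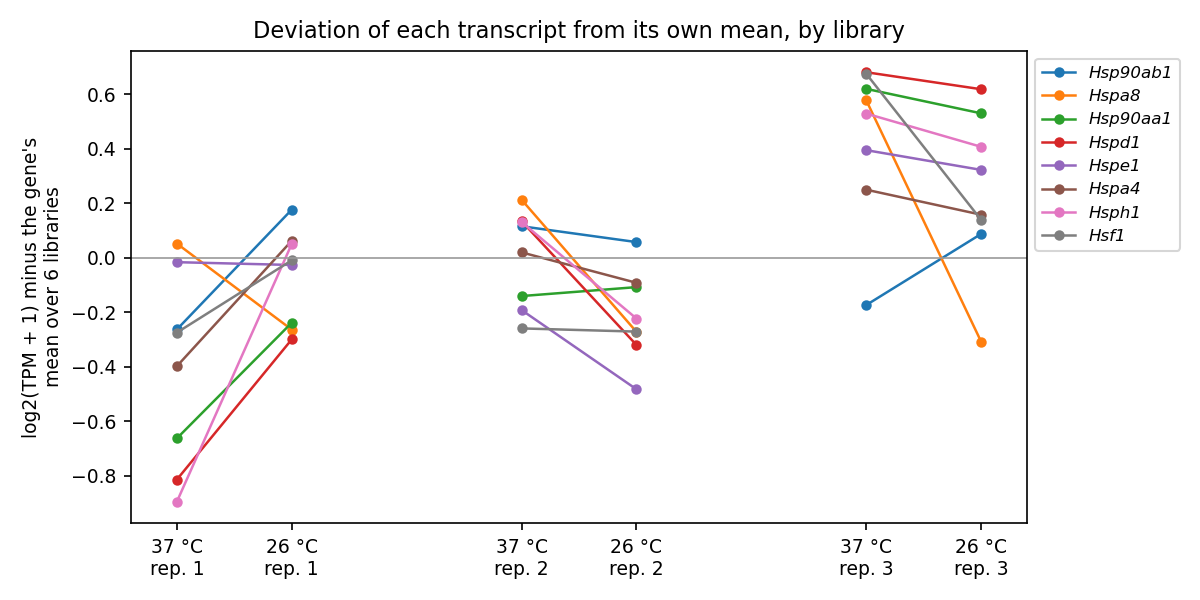
Deviation of each member from its own mean over 6 libraries, in log2(TPM + 1) of TPM as deposited, with lines joining the 37°C and 26°C libraries of the same replicate number. In replicate 3 at 37°C all members but Hsp90ab1 lie above their mean, and Hspa8 lies lower at 26°C than at 37°C in each replicate.

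With TPM as deposited, the direction of the change also differed between replicates. At 26°C, 6 of 8 members were higher in replicate 1, 1 of 8 in replicate 2 and 1 of 8 in replicate 3, against 35.7%, 32.0% and 35.4% of all genes tested. In replicate 1 the exceptions were Hspa8 and Hspe1. The single higher member was Hsp90aa1 in replicate 2 and Hsp90ab1 in replicate 3. Without replicate 3, 6 members had a value above 0 and 0 passed an adjusted p under 0.05 in limma, and the smallest adjusted p was 0.27, that of Hspa8. With median of ratios scaling and without replicate 3, an alternative chosen after seeing the data, all 8 had values above 0, from 0.06 for Hspa8 to 0.75 for Hsph1, where the median of all genes was 0.03, and the smallest adjusted p was 0.077, for Hspa4.

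By promoter, the median log2 fold change was -0.00 for the 3 tested members with a 2-unit match (Hsph1, Hspd1 and Hspe1) and 0.09 for the 5 without, a difference that was not tested.

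The genes whose pattern over the 6 libraries was most like that of Hsf1 were taken from the tested genes with a mean of at least 10 TPM, by the mean absolute difference of gene-centred log2(TPM + 1). These were Cd2, a T cell adhesion receptor gene, with a mean difference of 0.04, 2610020C07Rik (0.08) and Kmt2d (0.08), a histone methyltransferase gene. Of the other members, Hspe1 was the nearest to Hsf1, at rank 145 of 8275. For Hspa8 the nearest were Hars2 (0.05), Dicer1 (0.06) and Med23 (0.06), and the nearest member was Hsf1, at rank 1376. Hars2 was at 23.0, 25.9 and 31.9 TPM at 37°C and at 18.3, 19.9 and 18.6 TPM at 26°C, and so had the flat cold-acclimated level of Hspa8. This likeness describes 6 libraries and was not tested.

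The wider heat shock network was examined with 10 lists of 86 genes, all of them in the table and 71 of them tested. Of these, 0 were called upregulated in limma, against 2.63% of all genes tested, and 5 downregulated, against 16.0%. Voom on the recovered reads gave the same counts, against 3.34% and 13.9% of all genes. Median of ratios scaling gave 2 upregulated and 2 downregulated, against 6.56% and 8.79%, and the replicate block 0 and 7, against 3.75% and 21.9%. At an unadjusted p under 0.05, 4 of them were higher at 26°C and 13 lower, against 7.75% and 30.0% of all genes. The lists thus held no larger share of downregulated genes than the table as a whole under any of these settings. The median log2 fold change of the 71 was -0.12 as deposited, against -0.34 for all genes. The genes called downregulated were Dnajb2, Dnajb5, Chordc1, Fkbp5 and Dnaja3, and both Chordc1 and Dnaja3 remained downregulated after the rescaling.

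Among the genes of the HSF family and of HSF1 regulators, 0 of 5 tested genes passed the test, and their median was 0.06. The smallest p were those of Fbxw7, a subunit of a ubiquitin ligase that degrades HSF1, with 9.95, 11.6 and 13.1 TPM at 37°C and 15.4, 21.0 and 15.6 TPM at 26°C (log2 fold change 0.54, adjusted p = 0.16 in limma), and Hsf2, with 7.23, 9.74 and 7.17 and then 12.0, 11.5 and 10.3 TPM (0.45, adjusted p = 0.23). In both genes every cold-acclimated library lay above the non-acclimated ones. After median of ratios scaling Fbxw7 was at 0.91 (adjusted p = 0.047 in limma) and Hsf2 at 0.81 (adjusted p = 0.062), and neither was called. Hsf4, the other factor of the family that had reads in all libraries, reached at most 1.51 TPM and was under the minimum for testing.

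Of the other cytosolic HSP70 and HSP110 genes, 0 of 4 were called, and their median was -0.75. Hspa4l, an HSP110 gene, had 25.9, 23.4 and 12.1 TPM at 37°C and 9.61, 11.2 and 7.26 TPM at 26°C, with no overlap (log2 fold change -1.003, adjusted p = 0.074 in limma). It was called with the replicate number as a block, at an adjusted p of 0.021, as were 21.9% of all genes downwards. After median of ratios scaling Hspa4l was at -0.63 (adjusted p = 0.24 in limma). Hspa14 had a log2 fold change of -0.51 (adjusted p = 0.19 in limma).

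J-domain proteins stimulate the ATPase of HSP70 and hand it substrates, and 2 of 8 of these genes were called downregulated, against 16.0% of all genes, with a list median of -0.03. Dnajb2 had 22.0, 15.2 and 14.9 TPM at 37°C and 8.58, 4.05 and 4.43 TPM at 26°C (log2 fold change -1.50 ± 0.33, SE, with a limma adjusted p of 0.022). Dnajb5 had 4.92, 4.53 and 6.99 and then 2.44, 1.68 and 2.28 TPM (-1.04 ± 0.29, SE, adjusted p = 0.041). After median of ratios scaling both lost the call, with adjusted p of 0.063 and 0.11. Of the HSP70 co-chaperones, 0 of 9 were called, with a median of 0.17, and the smallest p were those of Stub1, the ubiquitin ligase CHIP (-0.84, adjusted p = 0.060, or 0.023 with the replicate number as a block), and Bag2 (0.51, adjusted p = 0.28).

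The HSP90 co-chaperones had 2 of 16 genes called downregulated and a median of -0.42, both close to the 16.0% and the median of -0.34 of all genes tested. Chordc1, whose protein binds HSP90, fell in 3 of 3 replicates, from 94.2, 116 and 128 TPM at 37°C to 18.6, 17.6 and 48.6 TPM at 26°C (log2 fold change -2.11 ± 0.40, SE, with a limma adjusted p of 0.015). Fkbp5, an immunophilin of HSP90 and steroid receptor complexes, fell from 128, 104 and 126 TPM to 32.3, 30.7 and 82.6 TPM (-1.43 ± 0.39, SE, adjusted p = 0.040). After median of ratios scaling Chordc1 kept its call (-1.72, adjusted p = 0.022) and Fkbp5 lost it (-1.03, adjusted p = 0.079), whereas Ppid, another immunophilin of HSP90 named after its values were seen, was called upregulated (1.13, adjusted p = 0.040).

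In the list of mitochondrial chaperones and proteases, 1 of 10 tested genes was called downregulated, against 16.0% of all genes, and the median was -0.35, against -0.34. Dnaja3, the J-domain partner of mitochondrial HSP70, fell from 78.2, 65.1 and 86.9 TPM at 37°C to 24.7, 11.5 and 23.8 TPM at 26°C (log2 fold change -1.95 ± 0.33, SE, with a limma adjusted p of 0.011), and it kept the call after median of ratios scaling (-1.56, adjusted p = 0.021). Hspa9, mitochondrial HSP70 itself, had 378, 398 and 521 TPM at 37°C and 778, 600.5 and 930 TPM at 26°C, higher in 3 of 3 replicates without overlap (0.82, adjusted p = 0.059, or 0.018 with the replicate block). After median of ratios scaling Hspa9 was called upregulated (1.22, adjusted p = 0.020). The mitochondrial HSP90 gene Trap1, named after its values were seen, had 113, 137 and 163 TPM and then 36.2, 29.7 and 116 TPM (-1.42, adjusted p = 0.076), and it was called with the replicate block, at an adjusted p of 0.019. After median of ratios scaling Trap1 was not called (-1.03, adjusted p = 0.14 in limma).

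**Figure D5:**
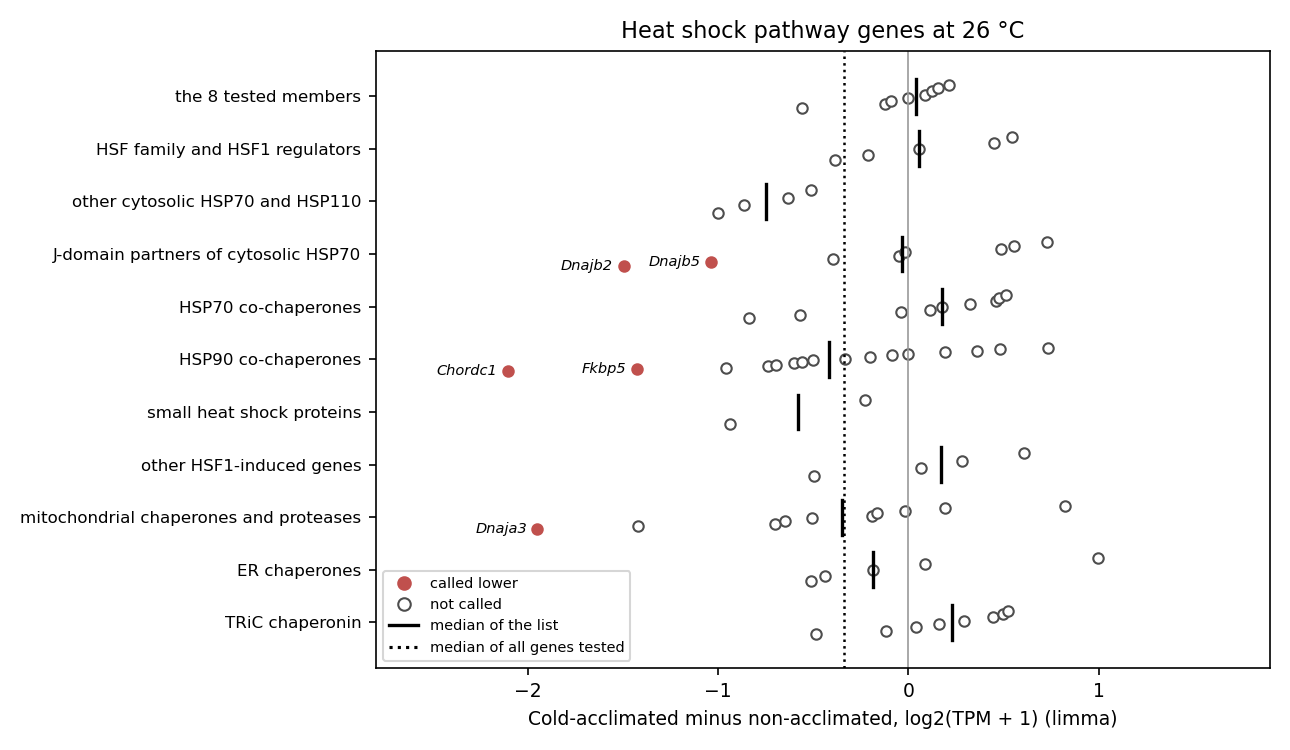
Log2 fold change (limma, log2(TPM + 1)) of the 8 tested members and of the tested genes of 10 lists of the heat shock network. Each circle is a gene, filled where it was called downregulated, the thick bar is the median of the list and the dotted line the median of all genes tested (-0.34). The 5 filled circles are Dnajb2, Dnajb5, Chordc1, Fkbp5 and Dnaja3, and no gene was called upregulated.

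In the remaining lists 0 genes were called. Of 9 small heat shock protein genes, 2 were tested, with Hspb6 at -0.94 (adjusted p = 0.21 in limma) and Hspb9 at -0.23 (adjusted p = 0.73), and Hspb1, a classic target of HSF1, did not exceed 0.674 TPM in any library, while Cryab was at 0 throughout. The 4 tested genes among other HSF1-induced genes had a median of 0.17. Of them, Hmox1 was at 36.5, 37.9 and 39.7 TPM at 37°C and 64.4, 51.6 and 60.0 TPM at 26°C, without overlap (log2 fold change 0.61, adjusted p = 0.076 in limma). With the replicate number as a block its adjusted p was 0.055. After median of ratios scaling Hmox1 was at 0.999 (adjusted p = 0.021 in limma), just under the 2-fold criterion. The 5 ER chaperone genes, which answer to the unfolded protein response, had a median of -0.19. Hspa5, the ER HSP70 BiP, was at 1904, 2089 and 1285 TPM at 37°C and 5084, 3533 and 2257 TPM at 26°C, higher in 3 of 3 replicates without overlap (log2 fold change 0.995, adjusted p = 0.087 in limma). With the replicate number as a block its adjusted p was 0.013, with the change just under the 2-fold criterion, and after median of ratios scaling the value was 1.40 (adjusted p = 0.0501). Hspa13 was at -0.51 (adjusted p = 0.23). The 8 genes of TRiC, the cytosolic chaperonin, had a median of 0.23, with Cct4 at -0.48 (adjusted p = 0.12) and Cct2 at 0.52 (adjusted p = 0.14). After median of ratios scaling Cct4 was at -0.09 (adjusted p = 0.78 in limma) and Cct2 at 0.92 (adjusted p = 0.033), under the 2-fold criterion.

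The calls in these lists depended on single libraries, as did those in the table as a whole. Over all genes tested, those called downregulated numbered 1954, and between 345 and 2725 with 1 library left out. With 1 library left out in turn, Dnaja3 had adjusted p of 0.0070 to 0.0498 in limma and was the single gene of the 5 to stay under 0.05 throughout. The ranges were 0.0025 to 0.063 for Chordc1, 0.031 to 0.081 for Dnajb2, 0.0029 to 0.14 for Fkbp5 and 0.046 to 0.13 for Dnajb5. Chordc1 lost the call without replicate 1 or 2 of either condition, Dnajb2 without replicate 2 of either condition or the non-acclimated replicate 1, and both Fkbp5 and Dnajb5 without any library other than cold-acclimated replicate 3. Without replicate 3 in both conditions, 1 of 71 list genes was called upregulated and 9 downregulated, against 653 and 3088 of all 12227 genes tested. Without replicate 1 or replicate 2 no list gene was called, when none of the 12227 genes was called either.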

How the data were processed

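RNA sequencing libraries of 3 non-acclimated (37°C, 24 h) and 3 cold-acclimated (26°C, 24 h) D10 cultures were analysed. Groups and replicate numbers came from the labels. According to the methods and the submitters' processing notes, poly(A)+ strand-specific libraries were trimmed with Trimmomatic 0.38, aligned to GRCm39 with HISAT2 2.1.0 and counted with featureCounts 1.6.3. The authors deposited TPM values. No source used here gives the annotation release, strand setting or treatment of reads with several matches, and the latter can lower genes with near-identical copies (Hspa8, Hsp90aa1, Hspa1a, Hspa1b). No column of another series was present.

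Read numbers were recovered from the steps between the TPM values of a gene, and 100% of 21195 genes with a value above 0 came out whole within 1e-06 reads. The test was limma 3.58.1 in R 4.3.3 with a mean-variance trend on log2(TPM + 1), over 12227 genes averaging at least 1 TPM, with Benjamini-Hochberg adjustment over all of them. This scale understates the change of low genes. Fold changes are cold-acclimated minus non-acclimated. The scripts were tested on simulated data. Other values came from Python 3.11.15 with numpy 2.4.6, pandas 2.3.3, scipy 1.17.1 and matplotlib 3.10.9.

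The members and lists were chosen with earlier results of these data known. Genes named are the members, the 2 genes of each list with the smallest p and any called gene, Rbm3 and Cirbp, gene models overlapping a member or its pseudogenes with a value, and the 3 genes most like Hsf1 and Hspa8. Hspa1l, Hsf4, Hspb1, Cryab, Ppid and Trap1 were named after their values were seen. A gene that this rule would name is not reported here. The numbers pair the libraries, since deviations from the condition means correlated at 0.48 to 0.51 across genes for equal replicate numbers and at -0.41 to 0.02 for unequal ones. The p-values measure the spread between these libraries, which the labels describe as biological replicates. Promoters came from the GENCODE annotation of GRCm39 (release M39), and windows of 150 bases were matched without mismatches.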

Additional observations from a re-analysis of the deposited data

How the results depend on the processing

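For the members, the counts of calls and of adjusted p under 0.05 were 0 under all 16 alternatives, and the smallest adjusted p was 0.059 in limma (Hspa8 with a replicate block). The block changed no call of a member. With median of ratios scaling, with or without a replicate block, Hsf1 was at 0.30, Hspd1 at 0.40 and Hspe1 at 0.28. Without replicate 3 as well, chosen after seeing the data, they were at 0.58, 0.49 and 0.31 and Hspa8 at 0.061. With voom they were at 0.016, 0.13 and 0.0045. With libraries left out, the ranges were -0.27 to 0.22 for Hsf1, -0.10 to 0.23 for Hspa4, -0.25 to 0.46 for Hsph1, -0.18 to 0.46 for Hsp90aa1, -0.41 to 0.34 for Hspd1 and -0.32 to 0.086 for Hspe1, and -0.34 to 0.28 and -0.32 to 0.24 for the log2 ratios of Hsp90aa1 to Hsp90ab1 and of Hspe1 to Hspd1. The cause of these reversals was not tested. With the replicate number as a block, a sign-flip permutation gave an exact p of 0.75 for both ratios, where 0.25 is the smallest possible. No ratio of Hspa1a and Hspa1b to Hspa8 could be computed, since together these genes had reads in 1 library.

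All genes called upregulated numbered 321, or 802 with median of ratios scaling, 1086 with a replicate block in addition, 1423 with that scaling without replicate 3, and 184 without the filter on low values; those called downregulated numbered 1954, or 1075 with median of ratios scaling and 1121 without the filter. With libraries left out the ranges were 0 to 653 and 0 to 3088. The lowest values came without replicate 1 or replicate 2 and the highest without replicate 3. In each of these fits a condition had 2 libraries. List genes called upregulated numbered 0, or 2 with median of ratios scaling, 4 with the block in addition and 10 with that scaling without replicate 3, and those called downregulated numbered 5, or 2 with median of ratios scaling and 2 without the filter. The ranges with libraries left out were 0 to 1 and 0 to 9. The floor of 3 reads covers counting error only, whereas the limma intervals rest on the spread between libraries. With 3 libraries a group and no replicate term, the intervals of 4 of the 8 members as deposited reached past a 2-fold change. These were Hspa8, Hsph1, Hsp90aa1 and Hspd1. With the replicate number as a block, the interval was -1.02 to -0.10 for Hspa8 and -0.52 to 0.83 for Hsph1. It was -0.33 to 0.57 for Hsp90aa1 and -0.55 to 0.55 for Hspd1. Of the members, only Hspa8 then had an interval that reached past a 2-fold change.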
